A study of Mus musculus with 12 samples.

Results

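The G2/M and mitosis genes described here are 43 genes that dividing cells switch on before and during cell division, taken by gene name from a list of regulators, kinases, spindle and kinetochore proteins, condensin subunits and cytokinesis factors. All 43 were found once each among the 55401 genes of the deposited tables. Expression was measured by RNA-seq in adult neural stem/progenitor cells (aNSPCs), primary cultures from the forebrains of C57BL/6 mice of 8 to 10 weeks, grown with EGF and FGF-2. Cells under proliferating conditions and cells under differentiation conditions were each studied without (Ctrl) and with NAD+ exposure, 3 samples in each of the 4 groups and 12 samples in all. NAD+, a metabolic cofactor, was added to the medium at 1 mM, and differentiation was induced with retinoic acid and forskolin, NAD+ being given together with both agents. The GEO treatment field reads untreated for all 12 samples, so the groups were taken from the sample titles. The 3 samples of a group are called biological repeats in the study, and nothing says whether they came from separate mice.

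Entry into mitosis depends on the kinase CDK1 bound to cyclin A or cyclin B. The genes for this machinery are transcribed together late in the cycle, under the transcription factors MYBL2 (B-Myb) and FOXM1 working with the MuvB complex. In quiescent and differentiated cells a pocket protein complex with the same MuvB core keeps these genes low. Adult neural stem cells move between quiescence and division, and leaving the cycle goes with differentiation into neurons and glia.

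Values are FPKM, fragments per kilobase of exon scaled to the mapped fragments of the library, so levels of different genes can be compared per length. The depth of the libraries is unknown, because the values are rounded to 0.01 and counts cannot be read from them, and counting error is therefore not given. Log2 changes are on the scale of log2(FPKM + 0.1), which understates the change of a gene near 0, and ratios of group mean FPKM are given beside them. A call is an adjusted p under 0.05 from limma, fitted over all genes whose mean FPKM reached 0.1. With 3 samples against 3, the exact two-sided permutation test cannot go below 0.1, and p-values measure the spread between these samples.

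Markers of neural stem and progenitor cells were present in each sample. The 8 such genes summed to 2625 to 2873 FPKM in proliferating Ctrl and 1610 to 2122 in proliferating NAD+, and to 757 to 851 under differentiation conditions. Fabp7 made up most of the proliferating sums, at 2034, 2032 and 2254 FPKM in Ctrl and 1030, 1403 and 1516 with NAD+. With NAD+ under proliferating conditions 7 of the 8 had log2 changes below 0 (median −0.28). Nes lay above 0, at 0.27, and none of the 8 was called by limma. The 7 microglia and blood markers summed to at most 0.87 FPKM and the 6 vessel and mural markers to at most 1.35 in any sample. Both replicates numbered 1 of the proliferating groups stood apart from the rest in the 43 genes, as described beside the NAD+ comparison. The main counts and the median changes over the 43 genes and the lists are given with and without them.

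Most promoter windows found for these genes hold the letters by which the shared regulation is usually described. In RefSeq windows of 300 bases (250 before and 50 after the start, GRCm38.p6), 36 of the 43 genes were found, with 38 windows. A CCAAT box, on either strand, was in 78.9% of the windows of these genes and in 37.4% of all 32851 windows. The cell cycle genes homology region was searched as TTTGAA or TTCGAA on both strands, letters whose ends can share a base with a CCAAT box, as they did in 1 of the 38 windows, that of Cdca8, which also held other CCAAT boxes. At least 1 of these was in 81.6% of the windows of these genes and in 19.2% of all windows, and both motif types together were in 73.7% and 7.5%. The windows of Nuf2, Nusap1, Ncaph, Mybl2 and Birc5 held neither motif type. Of 60 further G2/M and mitosis genes, 50 were found with 57 windows. These had a CCAAT box in 64.9%, TTTGAA or TTCGAA in 63.2% and both motif types in 42.1%. The 33 genes of G1/S and DNA replication, 27 of them found with 32 windows, had a CCAAT box in 59.4% and TTTGAA or TTCGAA in 15.6%. These shares describe letters, not binding.

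The 150 bases before the start are shown for 3 genes with deep falls under differentiation conditions (Cdk1, Ccnb2 and Cdc20) and for a pair with small ones (Bub1b and Smc2), as the levels described next set these genes apart. Capitals mark a CCAAT box or the letters TTTGAA or TTCGAA, on either strand.
Cdk1 (chr10:69352913-69353062, minus strand): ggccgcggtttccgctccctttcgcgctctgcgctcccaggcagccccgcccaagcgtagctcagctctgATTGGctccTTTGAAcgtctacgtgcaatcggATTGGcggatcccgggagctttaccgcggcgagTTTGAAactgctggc
Ccnb2 (chr9:70421555-70421704, minus strand): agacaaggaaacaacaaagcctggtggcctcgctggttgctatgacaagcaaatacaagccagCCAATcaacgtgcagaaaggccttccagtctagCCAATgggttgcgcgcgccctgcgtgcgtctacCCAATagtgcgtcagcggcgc
Cdc20 (chr4:118437344-118437493, minus strand): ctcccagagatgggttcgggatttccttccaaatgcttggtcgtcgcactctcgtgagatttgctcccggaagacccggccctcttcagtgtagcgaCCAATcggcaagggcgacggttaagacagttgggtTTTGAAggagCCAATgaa
Bub1b (chr2:118598061-118598210, plus strand): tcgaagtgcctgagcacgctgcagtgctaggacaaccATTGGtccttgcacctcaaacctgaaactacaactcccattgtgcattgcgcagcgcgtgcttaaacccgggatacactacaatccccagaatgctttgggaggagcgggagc
Smc2 (chr4:52439071-52439220, plus strand): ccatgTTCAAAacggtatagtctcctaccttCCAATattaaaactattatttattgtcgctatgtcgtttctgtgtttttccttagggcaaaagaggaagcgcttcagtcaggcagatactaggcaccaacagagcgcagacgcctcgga
Cdk1 had 2 CCAAT boxes in the stretch shown, the nearest starting 48 bases before the start, and TTTGAA at 71 and 15 bases before it. Ccnb2 had 3 CCAAT boxes, at 87, 54 and 21 bases before the start, and its TTTGAA letters lay outside the stretch shown. In Cdc20, TTTGAA stood 18 bases before the start between CCAAT boxes at 53 and 8. Bub1b and Smc2 each held 1 CCAAT box, at 113 and 119 bases before the start. All 5 windows held both motif types within the 300 bases. The 5 genes were picked by their falls, and Smc4, with another small fall, had no window. Whether the letters go with the depth of the fall was not tested.

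The first question was how far these genes fell when aNSPCs were placed under differentiation conditions. Without NAD+, all 43 genes were lower under differentiation than under proliferating conditions (limma, adjusted p under 0.05), against 31.6% of all 19498 genes tested, and the 3 differentiation samples lay below the 3 proliferating samples for each of the 43, against 33.9% of all genes. The median log2 change of the 43 was −4.66, beside −0.06 over all genes. Summed over the 43 genes, the level went from 677, 720 and 752 FPKM in proliferating Ctrl to 61.0, 55.1 and 60.2 in differentiation Ctrl. The same held with NAD+ in both conditions, where all 43 were lower against 37.6% of all genes and all 43 did not overlap against 41.7%, with a median of −4.86 beside −0.20 over all genes. Without both proliferating libraries numbered 1, all 43 were again lower in both comparisons, with medians of −4.74 and −5.02, and the largest move was that of Mki67 in Ctrl, from −5.55 to −5.88. The 43 genes summed to 675, 866 and 845 FPKM in proliferating NAD+ and to 53.7, 54.2 and 54.4 in differentiation NAD+. In bulk RNA, fewer dividing cells and less of these transcripts per cell cannot be told apart, and the conditions also differ in medium and were deposited in separate tables.

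The scale between conditions moved with normalization. Median-ratio scaling brought the median of all genes to 0.15 in both comparisons and that of the 43 to −4.50 in Ctrl and −4.59 with NAD+. Quantile normalization gave −4.84 and −4.75 for the 43, beside −0.02 over all genes in both. Under median-ratio scaling 23.7% and 24.1% of all genes were called lower, and the calls over all genes split into 6458 higher and 4621 lower in Ctrl (4884 and 6164 without scaling) and 6324 higher and 4700 lower with NAD+ (4050 and 7336 without).

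**Figure D1:**
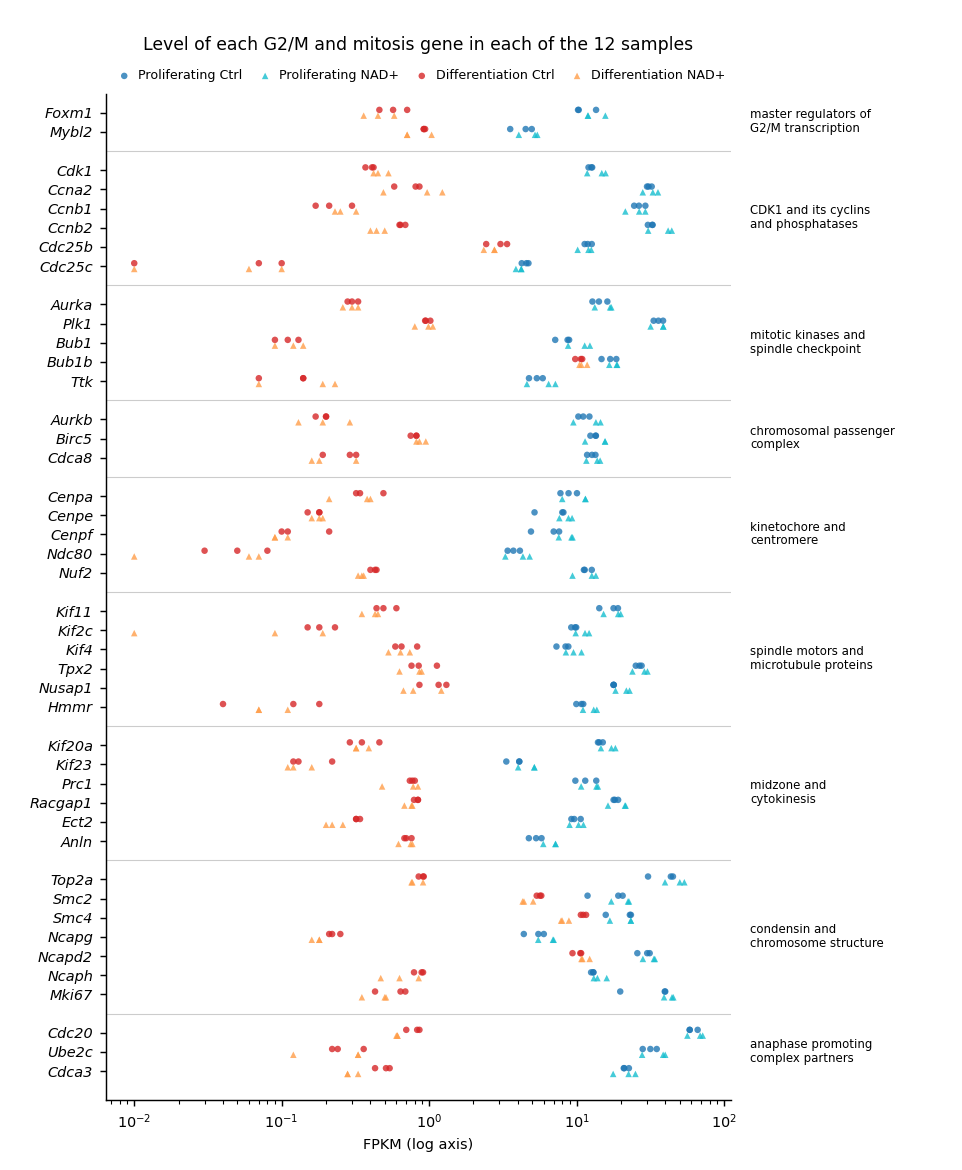
FPKM of each of the 43 genes in each of the 12 samples, on a log axis, with genes grouped by role. Blue and cyan points are proliferating samples and red and orange points differentiation samples, circles Ctrl and triangles NAD+. Bub1b, Smc4, Ncapd2, Smc2 and Cdc25b kept the highest levels under differentiation conditions. Mybl2, at a lower level, kept 21.3% of its proliferating mean in Ctrl, beside 24.7% for Cdc25b.

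Among the transcription factors, Foxm1 had 10.2, 10.4 and 13.6 FPKM in proliferating Ctrl and 0.57, 0.46 and 0.71 in differentiation Ctrl. Its log2 change was −4.08 (SE 0.19, adjusted p = 4.1e-08), and the ratio of means was 19.6-fold lower. Mybl2 was low already in proliferating Ctrl, at 3.55, 4.52 and 4.97 FPKM, and stood at 0.94, 0.92 and 0.92 in differentiation Ctrl. Its log2 change of −2.10 (SE 0.18, adjusted p = 2.45e-06) was smaller than that of Foxm1, and the 95% intervals of the log2 changes, −2.49 to −1.71 and −4.51 to −3.65, did not overlap. With NAD+, Foxm1 changed by −4.57 and Mybl2 by −2.45.

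The 6 genes of CDK1, its cyclins and the CDC25 phosphatases that activate it fell by a median log2 change of −5.05 in Ctrl and −4.94 with NAD+. Cdk1 had 12.8, 12.1 and 12.6 FPKM in proliferating Ctrl and 0.37, 0.42 and 0.41 in differentiation Ctrl, which is 3.2% of the proliferating mean. Ccnb1, which encodes cyclin B1, went from 29.3, 24.6 and 26.5 FPKM to 0.21, 0.17 and 0.30. This fall of −6.38 on the log2 scale (SE 0.17, adjusted p = 1.25e-09) was among the 3 largest in Ctrl, a ratio of 118-fold. Ccna2, encoding cyclin A2, was at 30.1, 30.8 and 32.4 FPKM in proliferating Ctrl and at 0.86, 0.58 and 0.81 in differentiation Ctrl, a log2 change of −5.21 (SE 0.25). Its exons share 12.5% of their bases with Exosc9 on the other strand, and whether counting used strand is not given in the sources used here. Cdc25b kept 24.7% of its level in Ctrl and 22.7% with NAD+, the most of this group.

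The kinases that drive spindle assembly fell with CDK1. Plk1, needed for centrosome maturation and mitotic entry, went from 38.6, 33.4 and 35.9 FPKM in proliferating Ctrl to 1.02, 0.95 and 0.94 in differentiation Ctrl (log2 change −5.07, SE 0.12, adjusted p = 8.13e-10). Bub1, a kinase of the spindle assembly checkpoint, went from 7.17, 8.70 and 8.91 FPKM to 0.09, 0.13 and 0.11. Its change was −5.31 (SE 0.17, adjusted p = 2.95e-09). Bub1b encodes BUBR1, another protein of the same checkpoint. It had 14.8, 16.9 and 18.6 FPKM in proliferating Ctrl and 10.9, 9.80 and 10.7 in differentiation Ctrl, so that 62.4% of its level remained. The log2 change of Bub1b was −0.67 (SE 0.10, adjusted p = 1.17e-04) in Ctrl and −0.71 (adjusted p = 6.34e-05) with NAD+, the smallest of the 43 in both comparisons, and in Ctrl its 95% interval of −0.88 to −0.46 lay far from that of Bub1, −5.69 to −4.94. Its exons share no bases with another annotated gene.

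The chromosomal passenger complex corrects faulty attachments of chromosomes to the spindle. Aurkb, its kinase, went from 12.2, 11.1 and 10.3 FPKM in proliferating Ctrl to 0.20, 0.17 and 0.20 in differentiation Ctrl (log2 change −5.28, SE 0.21). Birc5, encoding survivin, went from 13.5, 12.4 and 13.5 to 0.82, 0.75 and 0.82, and 6.06% of its level remained, beside 1.7% for Aurkb and 2.11% for Cdca8. The 95% interval of Birc5 in Ctrl, −4.16 to −3.61 on the log2 scale, did not overlap with those of the other two.

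All 5 kinetochore and centromere genes fell by between −4.79 and −4.23 on the log2 scale in Ctrl. Cenpa, the histone H3 variant that marks centromeres, went from 10.1, 8.83 and 7.78 FPKM to 0.34, 0.32 and 0.49, a change of −4.23 (SE 0.22, adjusted p = 8.71e-08). Ndc80, a subunit of the complex that holds microtubules, stood at 0.03 to 0.08 FPKM in differentiation Ctrl and at 0.01 to 0.07 in differentiation NAD+. The 6 spindle motors and microtubule proteins changed by between −5.71 and −3.40 in Ctrl, and the 6 midzone and cytokinesis genes by between −4.98 and −2.72. Kif20a, in the latter group, shares 29.3% of its exon bases with Cdc23 on the other strand.

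By role, the largest median falls were −6.10 in Ctrl and −6.53 with NAD+. They were those of Ube2c, Cdc20 and Cdca3, the 3 genes grouped here as partners of the anaphase promoting complex, the ubiquitin ligase that ends mitosis. Ube2c, its ubiquitin-conjugating enzyme, went from 35.0, 28.1 and 31.7 FPKM in proliferating Ctrl to 0.36, 0.24 and 0.22 in differentiation Ctrl. The log2 change of Ube2c was −6.42 (SE 0.26, adjusted p = 1.38e-08) in Ctrl and −6.68 (adjusted p = 7.75e-09) with NAD+. Cdc20, the activator that starts anaphase, had the highest level of the 43 in each proliferating sample, 66.3, 58.6 and 58.6 FPKM in Ctrl and 56.5, 71.8 and 69.0 with NAD+. It stood at 0.70, 0.86 and 0.83 in differentiation Ctrl and 0.61, 0.60 and 0.61 in differentiation NAD+. This was a log2 change of −6.10 (SE 0.11, adjusted p = 1.8e-10) in Ctrl and −6.53 (adjusted p = 8.51e-11) with NAD+. Of its exon bases, Ube2c shares part with Tnnc2 on the other strand, 22.8%.

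Genes of chromosome structure were the most uneven group. Top2a, the topoisomerase that untangles sister chromatids, went from 30.6, 43.6 and 45.1 FPKM in proliferating Ctrl to 0.91, 0.85 and 0.92 in differentiation Ctrl (log2 change −5.31, SE 0.16, adjusted p = 2.04e-09). Mki67, encoding the Ki-67 protein used as a marker of cycling cells, went from 19.8, 39.7 and 40.0 FPKM to 0.64, 0.43 and 0.69. Its change was −5.55 (SE 0.26, adjusted p = 3.52e-08) in Ctrl and −6.29 (adjusted p = 1.13e-08) with NAD+, the latter among the 3 largest of that comparison on this log2 scale. By ratio of means, Mki67 was 56.5-fold lower in Ctrl and 94.9-fold lower with NAD+. The largest ratio with NAD+ was that of Hmmr, 151-fold, a gene near 0 under differentiation conditions. The condensin subunits, which fold chromosomes, split. Ncapg and Ncaph kept 4.28% and 6.72% of their proliferating level in Ctrl, while Smc2, Smc4 and Ncapd2 kept 32.5%, 53.7% and 35.2%. Smc4 had 15.8, 23.0 and 23.4 FPKM in proliferating Ctrl and 11.6, 10.7 and 11.1 in differentiation Ctrl, a log2 change of −0.87 (SE 0.16, adjusted p = 7.82e-04). Ncapd2 had 25.9, 31.4 and 30.2 FPKM and then 10.8, 9.39 and 10.6, a change of −1.50 (SE 0.10, adjusted p = 5.12e-07). The exons of Ncapd2 hold the small RNA Scarna10 on the same strand, over 3.78% of their bases.

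Bub1b, Ncapd2, Smc4, Smc2 and Cdc25b, singled out after their values were seen, made up 12% to 14.1% of the summed FPKM of the 43 genes in the proliferating samples and 67.9% to 71.3% in the differentiation samples. The other 38 genes together summed to 586 to 756 FPKM in proliferating samples and to 15.6 to 19.3 in differentiation samples. Under differentiation conditions the median of the 43 genes was 0.35 to 0.60 FPKM, against 11.8 to 15.6 under proliferating conditions.

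**Figure D2:**
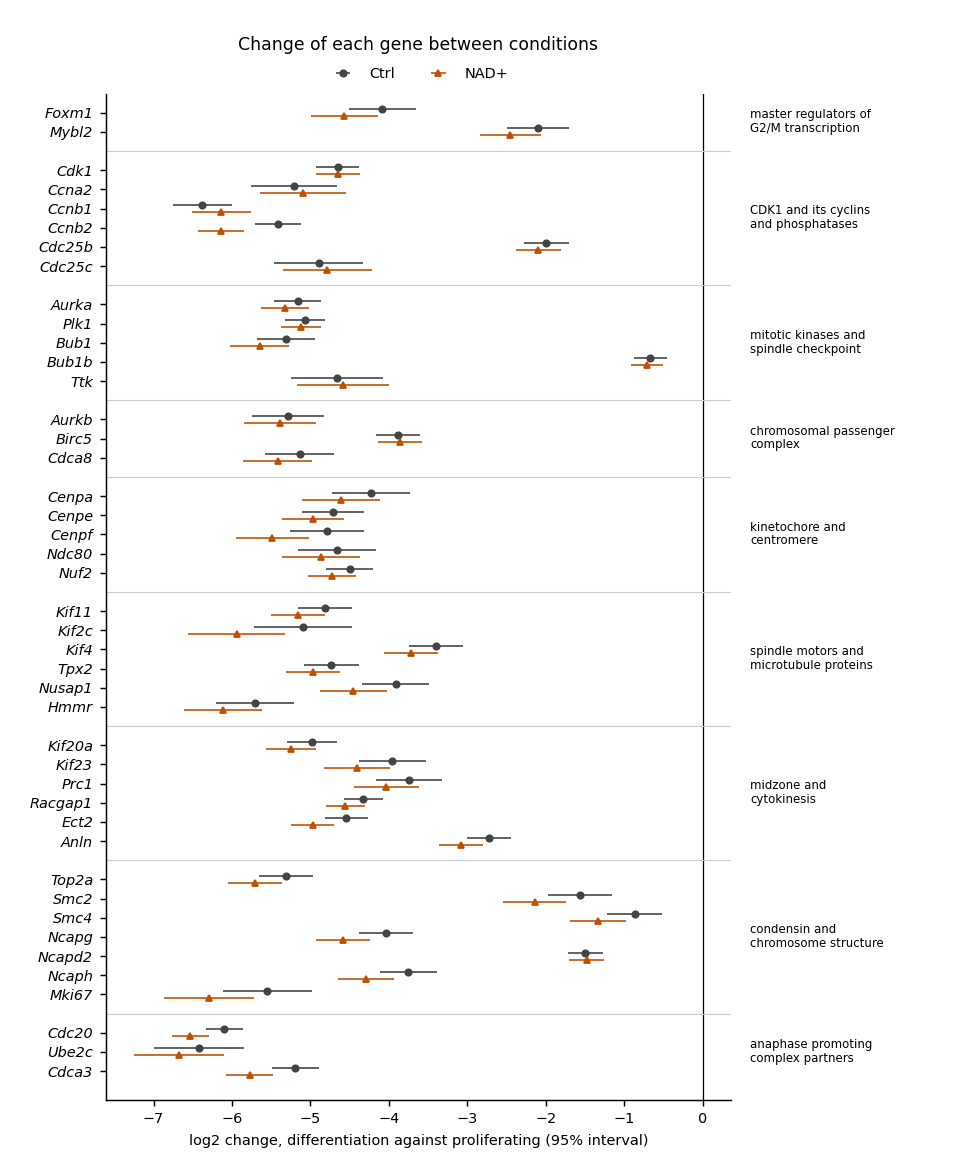
Log2 change of each of the 43 genes under differentiation against proliferating conditions, with its 95% interval, for Ctrl (grey circles) and NAD+ (orange triangles), with genes grouped by role. All points lie below 0, from −6.68 for Ube2c to −0.67 for Bub1b.

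Related genes outside the 43 had smaller median changes. Of 60 further G2/M and mitosis genes, 58 were lower in Ctrl and 60 with NAD+, with medians of −3.52 and −3.87. Pbk, a mitotic kinase, had the largest fall of these, from 46.5, 43.1 and 51.6 FPKM in proliferating Ctrl to 0.32, 0.21 and 0.20 in differentiation Ctrl. The pair not called in Ctrl were Ncapd3, a subunit of condensin II, with a log2 change of 0.26 (SE 0.15, adjusted p = 0.161), and Hjurp, the chaperone of CENP-A, with −0.20 (SE 0.17, adjusted p = 0.338). With NAD+ they changed by −0.57 (adjusted p = 0.00676) and −0.77 (adjusted p = 0.00236). Under median-ratio scaling 58 of the 60 were lower in Ctrl and 57 with NAD+. Ncapd3 was then called higher in Ctrl (0.50, adjusted p = 0.00849) and did not pass with NAD+ (−0.18, adjusted p = 0.275). All 33 genes of G1/S and DNA replication were lower in both comparisons, with medians of −2.65 and −3.18, from Mcm5, a subunit of the replicative helicase (−5.06 in Ctrl), to Slbp, which binds histone mRNA (−1.14). Without both libraries numbered 1 the counts of both lists were unchanged, with medians of −3.75 and −3.99 for the further mitosis genes and −2.74 and −3.32 for the G1/S genes.

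Lists of genes that act throughout the cycle or on leaving it had medians closer to 0, and their counts stand beside 31.6% of all genes lower and 25.0% higher in Ctrl, and 37.6% lower and 20.8% higher with NAD+ (under median-ratio scaling 23.7% and 33.1%, and 24.1% and 32.4%). Of 14 genes of the anaphase promoting complex, 13 core subunits and the activator Fzr1, 11 were lower in Ctrl and 13 with NAD+, with medians of −0.64 and −0.72, and 10 and 9 were lower under median-ratio scaling. Of 9 cohesin genes, 4 were lower and 1 higher in Ctrl (median −0.24), and 6 were lower with NAD+ (median −0.54), while under median-ratio scaling 2 were lower and 2 higher in Ctrl and 3 lower and 1 higher with NAD+. Of 12 MuvB and pocket protein genes, 7 were lower and 1 higher in Ctrl, with Rb1 at the upper end (0.49), and 8 lower and 1 higher with NAD+ (medians −0.76 and −1.07). Among 10 brakes on CDK1 and the cycle, 2 were higher and 4 lower in Ctrl and 4 higher and 6 lower with NAD+, while under median-ratio scaling 4 were higher and 3 lower in Ctrl and 4 higher and 2 lower with NAD+. Gadd45b, a stress-induced inhibitor of growth, rose by 1.72 and 2.14, and Wee1, the kinase that holds CDK1 inactive, fell by 2.08 and 2.82 on the log2 scale. Without both libraries numbered 1, the counts lower in Ctrl and with NAD+ were 11 and 11 for the anaphase promoting complex, 6 and 6 for cohesin, 7 and 8 for MuvB and pocket proteins and 3 and 6 for the brakes, and those higher were 0 and 0, 1 and 0, 2 and 1, and 3 and 3. In the same order the medians were −0.64 and −0.78, −0.41 and −0.60, −0.80 and −1.13, and −0.14 and −0.58. Over all genes, 6365 of 19537 were then lower and 4575 higher in Ctrl, and 7048 of 19544 lower and 3832 higher with NAD+.

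**Figure D3:**
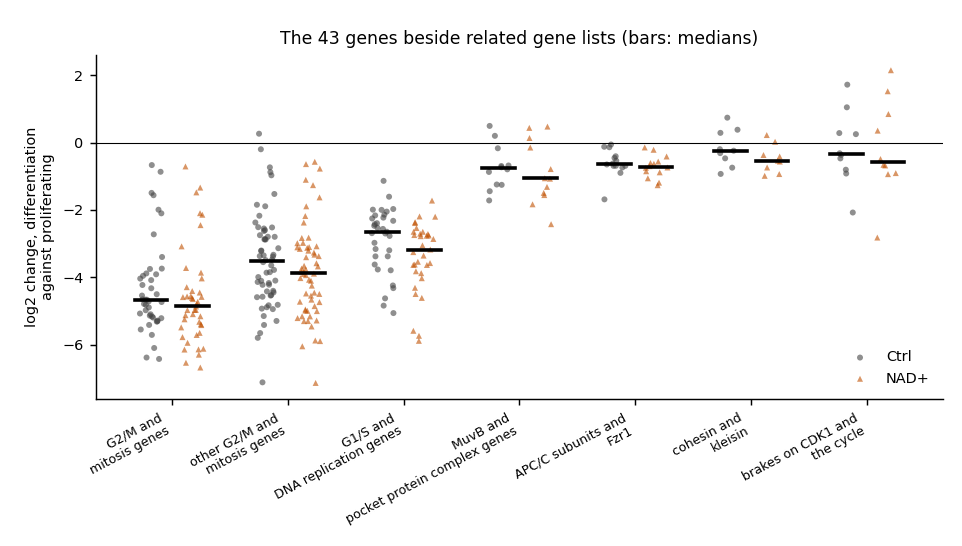
Log2 change under differentiation against proliferating conditions for each gene of 7 lists, for Ctrl (grey circles) and NAD+ (orange triangles), with the median as a bar. The first 5 medians in Ctrl were −4.66 for the 43 genes, −3.52 for further G2/M and mitosis genes, −2.65 for G1/S genes, −0.76 for MuvB and pocket protein genes and −0.64 for APC/C subunits and Fzr1.

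Cell type markers moved between conditions as well, but not in each list. The 7 astrocyte markers summed to 856 to 1079 FPKM in the proliferating samples, to 1551 to 1675 in differentiation Ctrl and to 1938 to 2045 in differentiation NAD+, and 5 of 7 were higher and 2 lower in both comparisons. Gfap had the largest rise of them, from 17.5 to 20.2 FPKM in proliferating Ctrl to 546 to 642 in differentiation Ctrl. Of 8 neural stem and progenitor markers, 5 were lower in each comparison, and 0 were higher in Ctrl and 1 with NAD+. The 7 neuron markers summed to 22.4 to 33.2 FPKM in proliferating samples and 30.05 to 35.5 in differentiation samples. Of them, 2 were higher and 1 lower in Ctrl, and 4 higher and 1 lower with NAD+. Among 6 oligodendrocyte lineage markers tested, 3 were higher and 1 lower in each comparison, and the 2 ependymal markers tested were higher in each. The part of the cell types in the fall of the 43 genes was not tested.

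The second question was whether NAD+ changed these genes in cells kept under proliferating conditions. None of the 43 was called by limma, against 0.145% of all 18597 genes tested. At an unadjusted p under 0.05, 3 of 43 were higher, against 9.35% of all genes, and none was lower, against 6.05%. The 3 NAD+ samples lay above the 3 Ctrl samples for 3 genes, Anln, Nusap1 and Ncaph, against 15.5% of all genes, and below them for 1, Cdc25c, against 8.59%. The log2 change was above 0 for 39 of 43, with a median of 0.15, beside 59.7% of all genes and a median of 0.07, and under median-ratio scaling it was above 0 for 32 with a median of 0.08.

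Anln, which encodes the cytokinesis scaffold anillin, had the smallest p of the 43. It stood at 4.75, 5.32 and 5.79 FPKM in Ctrl and at 5.95, 7.19 and 7.22 with NAD+, so the groups did not overlap. Its log2 change was 0.35 (SE 0.13, adjusted p = 0.269, exact permutation p = 0.1). Bub1 followed, at 7.17, 8.70 and 8.91 FPKM in Ctrl and 8.77, 12.3 and 11.4 with NAD+ (log2 change 0.38, SE 0.16, adjusted p = 0.318). Cenpf, a large kinetochore protein, changed by 0.44 (SE 0.18, adjusted p = 0.324). None of these passed. Nuf2, the partner of NDC80, changed least, by −0.0014 with a 95% interval of −0.36 to 0.36.

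Values of the other genes central to division overlapped between Ctrl and NAD+ under proliferating conditions. Cdk1 had 12.8, 12.1 and 12.6 FPKM in Ctrl and 11.8, 15.8 and 14.8 with NAD+, with the first NAD+ sample below all Ctrl samples. Ccnb1 changed by −0.06 (95% interval −0.38 to 0.25), Plk1 by 0.02 (−0.24 to 0.27), Ccna2 by 0.05 (−0.20 to 0.29) and Cdc20 by 0.10 (−0.17 to 0.37). Under median-ratio scaling Plk1 and Ccna2 turned to −0.06 and −0.03. The changes of Foxm1, Mybl2, Aurkb, Birc5, Cenpa, Top2a and Ube2c lay between 0.10 and 0.28, and each interval included 0. Mki67 changed by 0.44 with the widest interval, −0.20 to 1.09.

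Both libraries numbered 1 bore on this comparison. In proliferating Ctrl replicate 1, long genes were low and short genes high. For Mki67, whose exons span 10061 bases, it had 19.8 FPKM against 39.7 and 40.0 in replicates 2 and 3, and for Ube2c, with 2600 bases, 35.0 against 28.1 and 31.7. Across the 43 genes, the log2 of this library over the mean of the other 2 correlated with log2 exon length at Pearson r = −0.67 and Spearman −0.69, the genes sharing the library. The lowest quartile by length had a median of 0.12 and the highest −0.37. Across the 12618 genes that averaged 1 FPKM or more the correlation was −0.24 and −0.42, so that the library differed beyond the 43 genes. In proliferating NAD+ replicate 1, all 43 genes were below the mean of the other 2 samples, with a median of −0.33 and little relation to length (r = 0.23), and 7697 of 12618 genes were below, with a median of −0.06.

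Without proliferating NAD+ replicate 1, 42 of 43 changes were above 0 with a median of 0.28, and 18 were higher at an unadjusted p under 0.05, against 8.97% of all genes. Without both libraries numbered 1, a choice made after seeing the data, 42 of 43 changes were above 0 with a median of 0.21. At that level 26 were higher, against 15.6% of all genes. None of the 43 was called in either case, against 0 of 18605 and 1 of 18556 genes. Without Ctrl replicate 1 alone the median was 0.11 and none reached an unadjusted p under 0.05, against 10.7% of all genes higher. Without NAD+ replicate 2 or 3 the medians were 0.08 and 0.09, with 34 and 35 of 43 above 0. None of the 43 reached that level in either case, against 988 of 18599 and 963 of 18637 genes higher. Without Ctrl replicate 2 or 3 the medians were 0.14 and 0.18, and 0 and 2 reached it, against 1785 of 18551 and 1445 of 18603 genes higher. The cause of these differences between libraries was not tested.

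**Figure D4:**
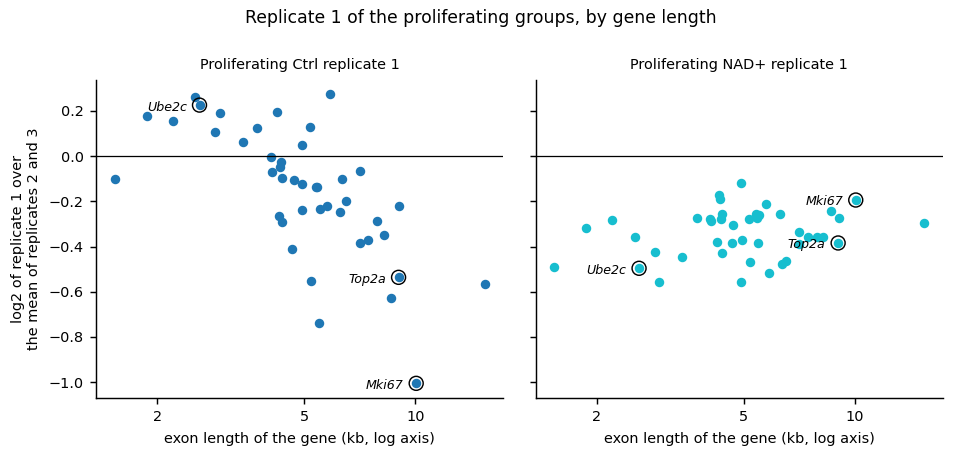
Log2 of replicate 1 over the mean of replicates 2 and 3 for each of the 43 genes (points) against its exon length in kilobases on a log axis, for proliferating Ctrl (left) and proliferating NAD+ (right), with Mki67, Top2a and Ube2c circled. In Ctrl the values fell with length (Pearson r = −0.67), and with NAD+ all 43 lay below 0.

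The third question was the effect of NAD+ under differentiation conditions, where most of the 43 genes were already near 0. Cdc25c, Ndc80 and Hmmr had a mean FPKM under 0.1 over the 6 samples and were not tested. Cdc25c stood at 0.10, 0.01 and 0.07 FPKM in Ctrl and at 0.10, 0.06 and 0.01 with NAD+. Hmmr, a spindle protein, stood at 0.12, 0.04 and 0.18 and at 0.07, 0.11 and 0.07, and Ndc80 at 0.05, 0.03 and 0.08 and at 0.01, 0.07 and 0.06. Of the 40 tested genes 1 was lower with NAD+, against 4.65% of all 19611 genes tested called lower, and none was higher, against 2.27%. The log2 change was below 0 for 30 of 40 and above 0 for 10, against 38.2% of all genes above 0. The median was −0.15 beside −0.08 over all genes. Under median-ratio scaling 27 of 40 were below 0, with a median of −0.10. Calls over all genes split into 445 higher and 912 lower, and into 597 higher and 579 lower under that scaling.

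Smc4, the condensin ATPase subunit, was the gene called. It had 11.6, 10.7 and 11.1 FPKM in differentiation Ctrl and 7.86, 7.99 and 8.88 with NAD+, so each NAD+ sample lay below each Ctrl sample. The log2 change was −0.43 (SE 0.07, adjusted p = 0.0222, exact permutation p = 0.1), and under proliferating conditions it was 0.04 (95% interval −0.43 to 0.51). The call held under median-ratio scaling (adjusted p = 0.0376), was lost with all 12 samples in 1 fit (adjusted p = 0.159), under the replicate block (adjusted p = 0.057) and when the variance was not moderated (adjusted p = 0.0614), and was lost without any one of the 6 samples other than NAD+ replicate 3 (adjusted p from 0.0606 to 0.0846). Smc2, the subunit that pairs with SMC4, had 5.77, 5.65 and 5.37 FPKM in Ctrl and 5.08, 4.40 and 4.31 with NAD+. Its change of −0.28 (SE 0.09, adjusted p = 0.114) did not pass, although the groups did not overlap. Ncapd2 lay the other way, at 10.8, 9.39 and 10.6 FPKM in Ctrl and 10.8, 12.28 and 10.96 with NAD+ (log2 change 0.15, SE 0.08, adjusted p = 0.342).

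At an unadjusted p under 0.05, 4 of 40 genes were lower, against 16.7% of all genes, and the 3 NAD+ samples lay below the 3 Ctrl samples for 9 of 40, against 21.1% of all genes. Apart from Smc4 and Smc2, the genes at that level were Cdca3 and Ccnb2. Cdca3, a trigger of mitotic entry, had 0.54, 0.51 and 0.43 FPKM in Ctrl and 0.33, 0.28 and 0.28 with NAD+ (log2 change −0.58, SE 0.20, adjusted p = 0.139). It was called when all 12 samples were in 1 fit (adjusted p = 0.0335). Ccnb2, encoding cyclin B2, had 0.69, 0.63 and 0.64 and then 0.44, 0.40 and 0.50 FPKM (log2 change −0.47, SE 0.17, adjusted p = 0.162). At these levels a change of a few hundredths of an FPKM unit makes up much of the value.

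The remaining genes central to division gave wide intervals under differentiation conditions. Cdk1 changed by 0.18 (95% interval −0.27 to 0.63), Ccna2 by 0.17 (−0.62 to 0.96) and Mki67 by −0.30 (−0.88 to 0.28). Cdc20, whose groups did not overlap, changed by −0.34 (−0.71 to 0.04, adjusted p = 0.246). Foxm1, Mybl2, Ccnb1, Plk1, Aurkb, Bub1, Cenpa, Birc5, Top2a and Ube2c lay between −0.27 and 0.18. Anln, which had the smallest p under proliferating conditions, changed least here, by −0.0038 (95% interval −0.39 to 0.38).

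**Figure D5:**
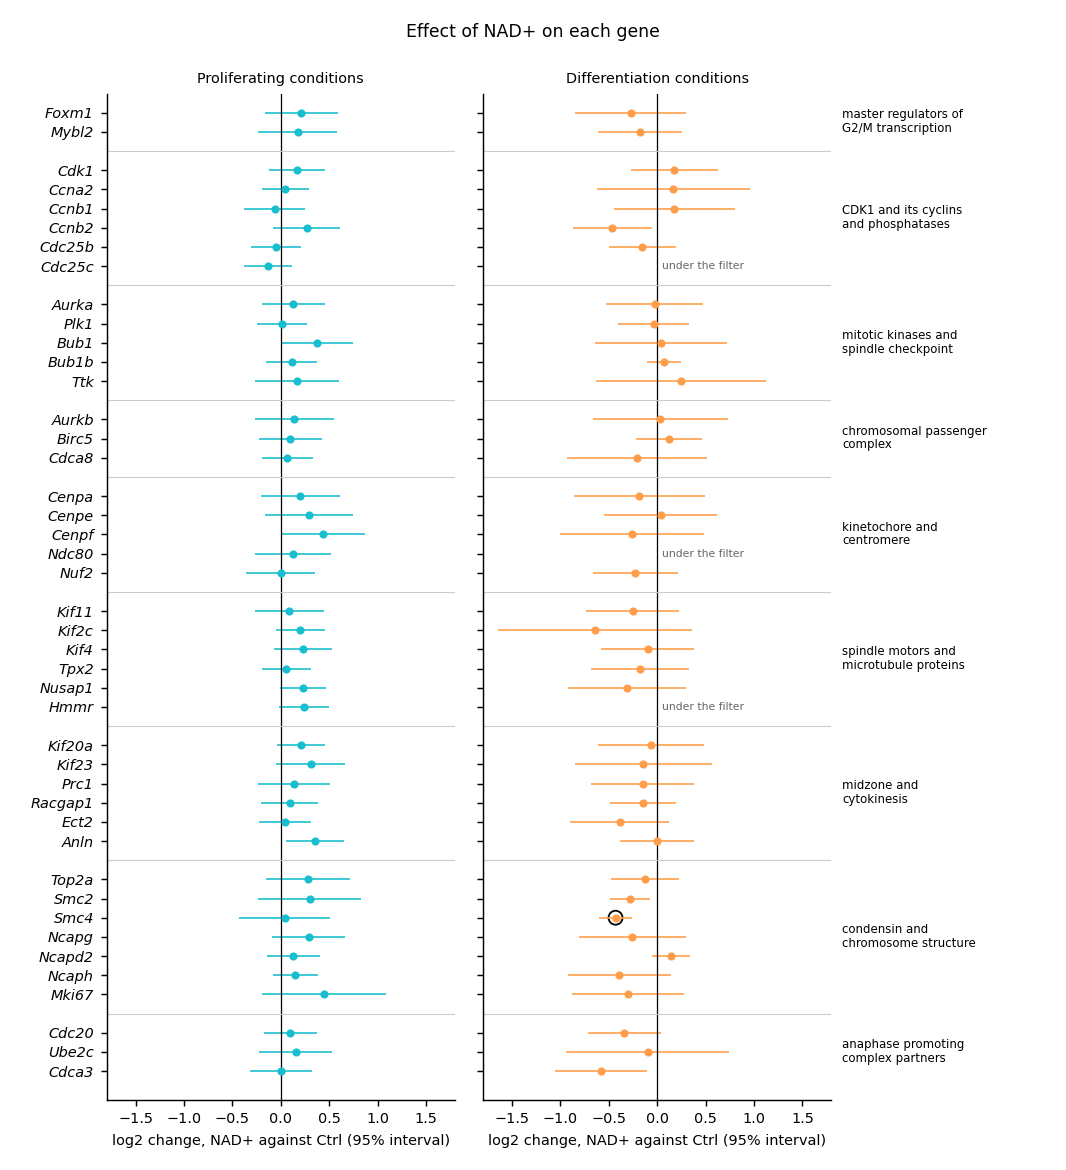
Log2 change with NAD+ against Ctrl for each of the 43 genes, with its 95% interval, under proliferating (left) and differentiation (right) conditions, with genes grouped by role. The circled point is Smc4 (−0.43), the gene called, and 39 of 43 points on the left and 10 of 40 on the right lie above 0. Of all genes tested, 59.7% and 38.2% lay above 0.

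Since values lay mostly above 0 under one condition and mostly below 0 under the other, the difference between the NAD+ effects was tested for each gene over all 12 samples. None of the 43 was called, against 0.467% of 19498 genes in either direction. Cdc25c, Ndc80 and Hmmr, not tested under differentiation conditions alone, passed the filter here only through their proliferating samples. Their values under differentiation conditions were near 0, but they are counted among the 43. At an unadjusted p under 0.05, 8 of 43 were lower under differentiation conditions, against 12.2% of all genes, and none was higher, against 3.35%. The difference was below 0 for 36 of 43 and above 0 for 7, against 33.2% of all genes above 0. The median was −0.33 beside −0.16 over all genes. Median-ratio scaling brought the median of all genes to −0.01 and that of the 43 to −0.18, and quantile normalization brought them to −0.01 and −0.12. Relative to all genes the median of the 43 was −0.17, and −0.10 under quantile normalization. Without both libraries numbered 1 the difference was below 0 for 39 of 43, with a median of −0.36 beside −0.14. Calls over all genes split into 43 higher and 48 lower, and into 69 higher and 20 lower under median-ratio scaling.

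Ccnb2 had the smallest p for this difference. It had 30.5, 32.6 and 32.8 FPKM in Ctrl and 30.6, 44.3 and 41.8 with NAD+ under proliferating conditions, a log2 change of 0.27 that did not pass (adjusted p = 0.421), beside the −0.47 under differentiation conditions given above. The difference was −0.73 (SE 0.19, adjusted p = 0.116). It was called without proliferating NAD+ replicate 1, at −0.89 (adjusted p = 0.0321), and without both libraries numbered 1, at −0.86 (adjusted p = 0.024). In these fits 114 of 19544 and 405 of 19570 genes were called, against 91 in the main fit. Cdca3 followed with −0.58 (SE 0.19, adjusted p = 0.199) and Cdc20 with −0.44 (SE 0.15, adjusted p = 0.213). Cdk1 differed least, by 0.0093 (95% interval −0.39 to 0.40). For Mki67 the difference was −0.75 (95% interval −1.55 to 0.06), and for Top2a −0.40 (−0.89 to 0.08). Ccna2, Ccnb1, Plk1, Aurkb, Bub1, Cenpa, Birc5, Ube2c, Foxm1 and Mybl2 lay between −0.49 and 0.24, and the interval of each included 0.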

How the data were processed

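FPKM values per gene and sample were deposited by the authors in a table for each condition, after mapping reads to mm10 with uniquely mapped reads counted per gene, and the program that gave FPKM is not given in the sources used here. The authors' fold change, p-value and q-value columns were not used, and no per-sample column (0) was omitted. The 43 members, the lists and the markers were chosen with earlier results of these data known. FPKM + 0.1 was log2 transformed. Genes whose mean FPKM reached 0.1 in the samples fitted were tested with limma 3.58.1 in R 4.3.3 (moderated variance with a trend, two-sided), adjusted by Benjamini-Hochberg over all genes tested. NAD+ was compared with Ctrl over the 6 samples of a condition, and conditions, and the difference of the NAD+ effects, over all 12 samples with 4 group means. Exact permutation tests used the difference of mean FPKM. The fits were also tested on simulated data with known changes. Exon lengths and overlaps came from GENCODE M21 (GRCm38).

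A group of 14 genes was named in each comparison, together with the 3 members with the largest change among those called (or the smallest p where fewer were called), the member with the smallest change and members under the filter. Others were named after their values were seen. Lists are described by counts and medians beside all genes. Alternatives were other added numbers, filters and scalings, a replicate block, no moderation, the study's rule (unadjusted p under 0.05 and more than 2-fold) and leaving out each sample. Shared replicate numbers were not used to pair samples in the main fits, as no label ties a number to a shared culture. The 7 members without a RefSeq promoter window were Ccna2, Cdc25c, Aurkb, Foxm1, Kif20a, Smc4 and Tpx2.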

Additional observations from a re-analysis of the deposited data

How the results depend on the processing

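All 43 genes stayed lower under differentiation conditions in Ctrl and with NAD+ under each alternative by limma, and under the study's rule of an unadjusted p under 0.05 with more than 2-fold 41 and 42 did. None was called for NAD+ under proliferating conditions in any alternative. Over all genes, limma calls there ranged from 0, as under the replicate block, to 735 with all 12 samples in 1 fit. The 1 call under differentiation conditions (Smc4) became 0 under the replicate block, when the variance was not moderated, and under the study's rule, and 0 to 1 when samples were left out singly. For the difference of the NAD+ effects the count was 0 to 1 when samples were left out singly, and 1 (Ccnb2) without both proliferating libraries numbered 1. Over all genes, calls for this difference went from 91 in the main fit to 405 without both libraries. The cause of these differences between fits was not tested.

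Values near 0 turned sign. For NAD+ under proliferating conditions, median-ratio scaling gave −0.03 for Ccna2 and −0.06 for Plk1, and leaving out both libraries numbered 1 gave 0.13 for Ccnb1 and 0.13 for Nuf2. Leaving out single samples gave −0.03 to 0.14 for Ccna2, −0.16 to 0.06 for Ccnb1, −0.04 to 0.11 for Plk1 and −0.10 to 0.16 for Nuf2. For NAD+ under differentiation conditions, median-ratio scaling gave 0.03 for Plk1 and 0.06 for Anln, and quantile normalization 0.08 for Plk1, 0.03 for Ube2c and 0.10 for Anln. Leaving out single samples gave −0.08 to 0.50 for Ccna2, −0.11 to 0.07 for Plk1, −0.17 to 0.22 for Aurkb, −0.03 to 0.13 for Bub1, −0.31 to 0.04 for Cenpa, −0.26 to 0.22 for Ube2c and −0.05 to 0.08 for Anln. For the difference of the effects, 1 added before log2 gave −0.09 for Cdk1 and −0.03 for Birc5, median-ratio scaling 0.10 for Plk1 and 0.03 for Aurkb, quantile normalization 0.06 for Plk1 and 0.11 for Aurkb, and leaving out both libraries numbered 1 gave −0.13 for Cdk1 and −0.15 for Birc5. Leaving out single samples gave −0.13 to 0.46 for Ccna2, −0.11 to 0.09 for Cdk1, −0.14 to 0.06 for Plk1, −0.31 to 0.07 for Aurkb, −0.13 to 0.10 for Birc5 and −0.42 to 0.07 for Ube2c.

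Whether the replicate numbers pair the samples is not known. Same-numbered samples correlated around their group means at 0.11, 0.02 and 0.05 under proliferating conditions. Under differentiation conditions the values were 0.04, 0.04 and 0.03. Such weak values from 3 samples in a group cannot decide it. Every sample correlated best with its own number under differentiation conditions but not under proliferating ones, a hint from the data and not from the design. With the replicate block 0 members were called for NAD+ in either condition, Smc4 having an adjusted p of 0.057, and over all genes the calls fell from 27 to 0 and from 1357 to 758. Under proliferating conditions, members at an unadjusted limma p under 0.05 went from 3 to 9 of 43 with the block. Over all 18597 genes, those higher at that level went from 1738 to 1912 and those lower from 1126 to 1182. Unknown depth limits the values under 0.1 FPKM.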

Other observations

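The genes of G1/S and DNA replication act before the 43 genes in the cycle. With NAD+ under proliferating conditions all 33 lay above 0, against 59.7% of all genes. The median log2 change was 0.28 beside 0.07 over all genes, and none was called by limma. Under median-ratio scaling 32 of 33 lay above 0 with a median of 0.20, and without both libraries numbered 1 it was 32 with 0.30. The highest was Ccne1, encoding cyclin E1, at 0.80, and the lowest Cdt1, a licensing factor, at 0.02. Under differentiation conditions 10 of 32 tested lay above 0, against 38.2% of all genes, with a median of −0.19 and none called. The difference of the NAD+ effects was below 0 for 31 of 33 genes and above 0 for 2, against 33.2% of all genes above 0. The median was −0.52 beside −0.16 over all genes, and none was called. The median of this difference was −0.37 (27 below 0) under median-ratio scaling and −0.33 (25 below 0) under quantile normalization. Without both libraries numbered 1 it was −0.46 (32 below 0), and 1 gene was called lower, against 241 of all 19570 genes.

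Under differentiation conditions, 2 of 47 tested further mitosis genes were lower with NAD+, a share of 4.26% beside 4.65% of all genes. These were Cit, a kinase of cytokinesis (log2 change −0.91, SE 0.19, adjusted p = 0.043), and Ncapd3 (−0.49, SE 0.08, adjusted p = 0.0188), and under median-ratio scaling Ncapd3 passed (−0.42, adjusted p = 0.0258) and Cit did not (−0.85, adjusted p = 0.0557). Ncapd3 had 6.57, 5.94 and 6.39 FPKM in Ctrl and 4.53, 4.64 and 4.23 with NAD+. Gadd45a, a stress-induced brake on the cycle, was higher by 1.33 (SE 0.17, adjusted p = 0.011), and Cdkn1c, encoding the CDK inhibitor p57, changed by −0.91 (SE 0.16, adjusted p = 0.0254). Fzr1, an activator of the anaphase promoting complex (−0.35, adjusted p = 0.036), and Stag1, a cohesin subunit (−0.32, adjusted p just under the 0.05 limit), also passed, and neither did under median-ratio scaling. Ncapd3 was named after its values were seen.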
